A study of Mus musculus with 23 samples.

Results

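The tumor necrosis factor (TNF) superfamily was followed in RNA-seq libraries of dendritic cells (DCs) sorted from mouse spleen. Its members were taken by symbol: every gene named Tnfsf or Tnfrsf with a number, plus Tnf, Lta, Ltb, Ltbr, Fas, Fasl, Cd27 and Cd70. Of 47729 genes in the count table, 40 met this rule, namely 16 ligands, 23 receptors and Tnfsf13os, an RNA transcribed antisense to the ligand gene Tnfsf13 and not itself a ligand. The rule leaves out superfamily genes that carry other symbols, such as Cd40 and Cd40lg, which are given separately near the end. All mice were wild type of the Balb/C strain, and 4 populations were sorted from their spleens, labeled DC1a (CD8hi CD172-), DC1b (CD8Int CD172+), DC2 (CD8lo CD172hi) and DC3 (CD8- CD172lo). The mice were either untreated or given a treatment that the labels call TLI and do not spell out, and no age is given. Each library came from 1 pool of mice: 2 pools were untreated, and 4 were TLI, of which pools 1 and 2 belonged to batch 1 with the untreated pools and pools 3 and 4 to batch 2. The TLI DC2 group held 3 libraries, of pools 1, 3 and 4, and with 4 libraries in each other TLI group and 2 in each untreated group there were 23 in all.

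Ligands of this superfamily are mostly membrane proteins that assemble as trimers and can be shed, and their receptors cluster on binding. Receptors with a death domain, such as Fas and TNF receptor 1, can start cell death. Many receptors of the family recruit TRAF adaptors and lead to NF-kB and MAP kinase signaling. On DCs the family is known for both directions of contact with lymphocytes: DCs carry ligands that costimulate T cells or keep B cells alive, and their own survival and turnover in the spleen depend on the lymphotoxin beta receptor.

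The libraries held between 19256447 and 36997890 counts (median 27199618). Levels are given in CPM (counts scaled to a common library total), and in CPM per kilobase of exon where genes are compared with each other. A marker check matched the labels in part. Summed markers of DC1 cells were at 2370 to 4004 CPM in DC1a, 675 to 1706 CPM in DC1b and 191 to 416 CPM in DC2. DC3 libraries carried DC1 markers at 1894 to 3039 CPM. Markers of DC2 cells summed to 672 to 769 CPM in untreated DC2 and 262 to 349 CPM in untreated DC1b. In TLI libraries they summed to 159 to 676 CPM in DC2 and 48.7 to 227 CPM in DC1b, so that these ranges overlapped. They were at 9.38 to 18.8 CPM in DC1a and 17.6 to 103 CPM in DC3. Untreated DC1b libraries had 2817 to 3083 CPM of plasmacytoid DC markers while TLI DC1b libraries had 49.2 to 143 CPM, so that the libraries labeled DC1b differ between the treatments in more than this family. Erythroid genes summed to between 19252 and 132790 CPM in the 7 TLI libraries of batch 1, 143 to 7126 CPM in the 8 of batch 2 and 56.1 to 2276 CPM in the 8 untreated ones. Per the methods of the study, DCs were sorted from CD11c-enriched spleen cells stained for CD11c, B220, MHCII, CD8a and CD172a, a stain without a neutrophil, T-cell or NK-cell marker. In bulk RNA, fewer cells of a type and less RNA per cell cannot be told apart.

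The family was unevenly expressed. Only 9 of the 40 members exceeded 3 counts in every library, and no member stayed at or under 3 counts in all of them. Tnfrsf11b, the decoy receptor osteoprotegerin, and Tnfrsf19 were over 3 counts in 2 libraries each and were too low to test, which left 38 members for the tests. Among ligands, per kilobase, Ltb (lymphotoxin beta, which forms a membrane trimer with lymphotoxin alpha), Tnf and Tnfsf9 (4-1BB ligand, a T-cell costimulator) held the top 3 places in 7 of the 8 groups. In TLI DC3 the third place went to Fasl, the ligand of Fas, at 16.8 ± 25.1 CPM per kilobase (SD, n = 4). Ltb was the first of the ligands in untreated DC2, at 209 ± 6.75 CPM per kilobase (SD, n = 2).

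**Figure D1:**
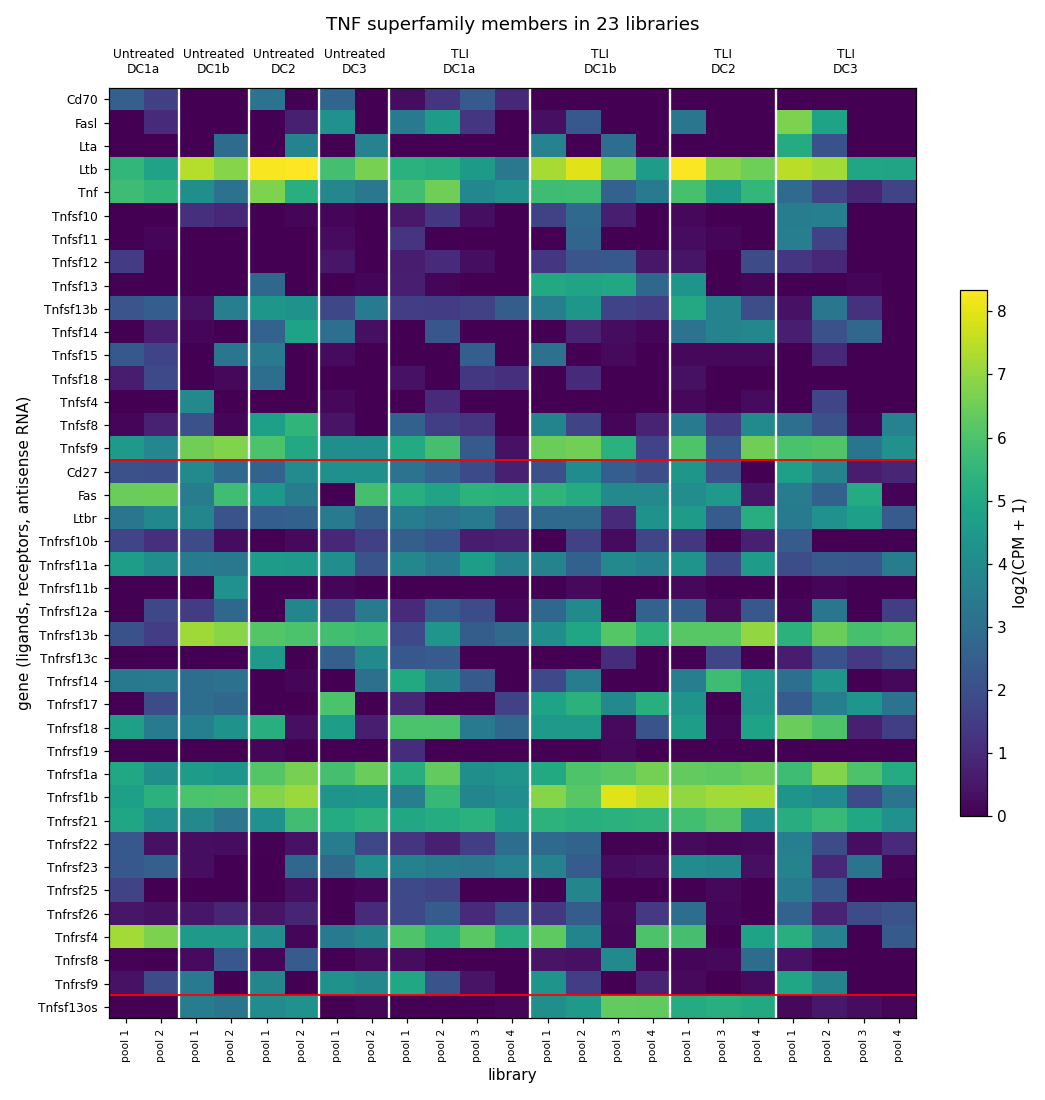
Levels of all 40 members as log2(CPM + 1) (color) in the 23 libraries (columns, by group and pool). Red lines separate the 16 ligands, the 23 receptors and the antisense RNA; Ltb, Tnf and Tnfsf9 form the brightest ligand rows, and many other rows are bright in a few libraries only.

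Receptors had a different leading set in each population. In untreated DC1a, Tnfrsf4 (OX40, a costimulatory receptor best known from activated T cells) was first at 90.9 ± 22.3 CPM per kilobase, followed by the death receptor Fas at 41.7 ± 0.718 CPM per kilobase (SD, n = 2 each). Tnfrsf13b (TACI, a receptor for the B-cell survival factors BAFF and APRIL) led in untreated DC1b at 45.2 ± 6.36 CPM per kilobase. The 2 TNF receptors led in untreated DC2, with Tnfrsf1b at 32.3 ± 4.72 and Tnfrsf1a at 32 ± 8.4 CPM per kilobase, a difference smaller than the spread between the libraries. Tnfrsf17 (BCMA, an APRIL receptor typical of plasma cells) was nominally first in untreated DC3, but its 38.1 ± 53.9 CPM per kilobase came from 1 library, with 62.1 CPM in pool 1 and 0 in pool 2.

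Differences among the 4 populations were tested in 1 edgeR fit of all 23 libraries with batch as a term. The edgeR adjusted p given throughout is that of its quasi-likelihood test, corrected by the Benjamini-Hochberg method across 19597 genes. In untreated mice 3 of 38 members differed among the populations (Tnfsf13os, Tnfrsf13b and Ltb), beside 2.53% of all genes tested. Without adjustment, 9 members had a p under 0.05, beside 14% of all genes. In TLI mice 5 of 38 members differed (Tnfsf13os, Tnfrsf1b, Tnf, Ltb and Tnfrsf13b), beside 3.16% of all genes, and 8 had an unadjusted p under 0.05, beside 17.1%. Missing the threshold does not show a member to be alike across populations.

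Between pairs of untreated populations, edgeR called 2 members from DC1a to DC1b (0.939% of all genes), 3 from DC1a to DC2 (2.13%), 1 from DC1a to DC3 (0.245%) and 1 from DC2 to DC3 (0.913%). It called none from DC1b to DC2 (0.459%) or from DC1b to DC3 (0.444%), where 9 and 6 members had an unadjusted p under 0.05, beside 8.99% and 8.32% of all genes. Between TLI populations it called 3 members from DC1a to DC1b (1.44%), 4 from DC1a to DC2 (3.43%), 2 from DC1a to DC3 (0.75%), 3 from DC1b to DC3 (1.14%) and 3 from DC2 to DC3 (1.33%), and none from DC1b to DC2 (0.225%), where 4 had an unadjusted p under 0.05, beside 10.2% of all genes. DESeq2 called 18 member differences between untreated populations, against the 7 of edgeR. The share of all genes that DESeq2 called is not given here, so the larger count need not be particular to the family.

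Tnfrsf13b, the TACI gene on chromosome 11 (GRCm38, 61126755 to 61149372, plus strand), was low in DC1a and high elsewhere. Its levels in untreated DC1a were 3.31 and 1.85 CPM, against 141 and 115 CPM in DC1b, 67.3 and 62.2 CPM in DC2, and 55.5 and 50.1 CPM in DC3. None of the untreated DC1a libraries reached the level of any library of the other 3 populations. The fitted log2 difference from DC1a was 5.34 ± 0.86 (SE) in DC1b (edgeR adjusted p = 0.00446), 4.44 ± 0.82 in DC2 (edgeR adjusted p = 0.00751) and 4.09 ± 0.81 in DC3 (edgeR adjusted p = 0.0453). In TLI mice the order changed: DC1a libraries had 2.6, 19.2, 4.49 and 6.36 CPM, and DC1b libraries 16.4, 29.3, 70.3 and 40.7 CPM, so that the ranges of these groups overlapped. TLI DC2 libraries held 72, 70.5 and 126 CPM and TLI DC3 libraries 40.2, 87.1, 59.2 and 66.5 CPM, above every TLI DC1a library. The log2 difference from TLI DC1a was 3.11 ± 0.58 in DC2 (edgeR adjusted p = 0.00489) and 2.73 ± 0.54 in DC3 (edgeR adjusted p = 0.02), while the 2.15 ± 0.54 in DC1b missed the threshold (edgeR adjusted p = 0.062). Markers of B cells, which also use TACI, summed to 110 to 130 CPM in untreated DC1b and 131 to 311 CPM in untreated DC3. They summed to 2.49 to 16.6 CPM in untreated DC2 and 16.5 to 17.9 CPM in untreated DC1a. Plasma-cell markers summed to 1008 to 1043 CPM in untreated DC1b and 4568 to 9916 CPM in untreated DC3. In untreated DC2 and DC1a they summed to 134 to 225 CPM and 151 to 219 CPM. Untreated DC1b also carried the plasmacytoid DC markers given above. The part of these cells in the Tnfrsf13b levels was not tested. The untreated call over all populations rested on both DC1a libraries, since it gave an edgeR adjusted p of 0.113 without pool 1 of DC1a and 0.179 without pool 2. So were the untreated DC1b and DC2 differences (edgeR adjusted p between 0.0898 and 0.142), and the untreated DC3 difference was lost in 16 of 23 fits that left out 1 library. The TLI call over all populations was lost without TLI DC1a pool 3 or 4 (edgeR adjusted p = 0.087 and 0.091), and the TLI DC3 difference without TLI DC1a pool 1, 3 or 4 (edgeR adjusted p between 0.052 and 0.103). Both were also lost in a fit of TLI libraries only (edgeR adjusted p = 0.0745 and 0.0781).

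The ligands of TACI were weaker and more scattered. Tnfsf13b, which encodes BAFF, ranged in untreated libraries from 0.282 CPM in DC1b pool 1 to 20.5 CPM in DC2 pool 1. Tnfsf13, which encodes APRIL, was at 0 in both untreated DC1b libraries and at 32.8, 28.4, 30 and 6.07 CPM in the TLI DC1b libraries. That fold is a lower bound: the TLI mean of 24.3 CPM was at least 172-fold higher than the level that 3 counts per library would give in untreated DC1b. The difference did not pass the test (edgeR adjusted p = 0.211).

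Tnfsf13os, whose exons overlap Tnfsf13 by 221 bases and a Tnfsf12-Tnfsf13 readthrough gene by 253 bases on the opposite strand, was found in DC1b and DC2. It was at 0 in both untreated DC1a libraries and at 0 and 0.117 CPM in untreated DC3, against 10.3 and 8.23 CPM in DC1b and 15.3 and 17.8 CPM in DC2. TLI libraries repeated the split, with 16.7, 21.3, 79.8 and 78 CPM in DC1b, 34.3, 37.3 and 32.9 CPM in DC2, 0 to 0.109 CPM in DC1a and 0.0854 to 0.443 CPM in DC3. No DC1b or DC2 library overlapped with any DC1a or DC3 library. The edgeR adjusted p over the populations was 0.00373 in untreated and 9.54e-05 in TLI mice, and the untreated DC1b mean of 9.25 CPM was at least 79.9-fold higher than 3 counts per library would give in DC1a. Without 1 of the untreated DC1a libraries the untreated differences from DC1a were lost (edgeR adjusted p between 0.0887 and 0.239). In a fit of untreated libraries only, the call over the populations was lost (edgeR adjusted p = 0.0887), as were the differences of DC1b (0.102) and DC2 (0.0637) from DC1a. Sense reads cannot be told apart from antisense reads where the gene pair overlaps, because no strand setting is given for the counting. Monocyte and macrophage markers summed to 1603 to 2526 CPM in untreated DC1b and 268 to 555 CPM in untreated DC2. They summed to 67.6 to 92.4 CPM in untreated DC1a and 140 to 287 CPM in untreated DC3. Untreated DC1b thus had the larger marker sum, and untreated DC2 the higher Tnfsf13os. In TLI DC1b the markers summed to 1355 to 1490 CPM in batch 1 and 575 to 791 CPM in batch 2, where Tnfsf13os was higher. TLI DC2 had 1214 CPM in batch 1 and 486 to 511 CPM in batch 2. TLI DC1a and TLI DC3 had at most 303 and 329 CPM. The part of these cells in the result was not tested.

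Tnf and Ltb are neighbors on chromosome 17, with Lta, within 10913 bases in all (GRCm38, 35194439 to 35205351), and yet had different patterns. Ltb was highest in DC2: untreated DC2 libraries had 309 and 324 CPM, DC1b 168 and 113 CPM, DC3 56.7 and 97.4 CPM, and DC1a 45.3 and 26.8 CPM. Each untreated DC2 library was above every other untreated library. The log2 difference of DC2 from DC1a was 2.92 ± 0.59 (edgeR adjusted p = 0.012). In TLI mice Ltb was at 39.1, 35.4, 22.2 and 9.23 CPM in DC1a, 152, 251, 86.3 and 23.4 CPM in DC1b, 310, 114 and 89.4 CPM in DC2, and 177, 144, 29.4 and 28.6 CPM in DC3. Within DC1b, DC2 and DC3 the first values, from batch 1, were the high ones, and DC1b pool 4 and both batch 2 libraries of DC3 lay within the range of DC1a. The log2 difference from TLI DC1a was 2.57 ± 0.43 in DC2 (edgeR adjusted p = 0.00195) and 1.98 ± 0.4 in DC1b (edgeR adjusted p = 0.0154). The DC1b difference was lost without TLI DC1a pool 1, 2 or 4 or TLI DC1b pool 3 (edgeR adjusted p between 0.0699 and 0.0856). With TLI libraries of batch 2 alone, the difference of Ltb among TLI populations gave an edgeR adjusted p of 0.134. The untreated call over all populations was lost when any of 5 libraries was left out (both of DC1a, both of DC2 and DC3 pool 1), with an edgeR adjusted p between 0.0527 and 0.138, and the step from untreated DC1a to DC2 without any library of those populations (edgeR adjusted p between 0.0534 and 0.204). Both were also lost without the batch term (edgeR adjusted p = 0.462 and 0.319). Lta, the partner of Ltb in the membrane trimer, was at 0 in 16 of the 23 libraries and reached 34.1 CPM only in TLI DC3 pool 1.

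Whereas Ltb had its lowest group mean in DC1a of both treatments, Tnf, the founding cytokine of the family, had its lowest in TLI DC3. Its levels in untreated libraries were 52.4 and 42.9 CPM in DC1a and 16.8 and 7.75 CPM in DC1b. They were 105 and 36.7 CPM in DC2, and 13.4 and 9.2 CPM in DC3. The difference among untreated populations did not pass the test (edgeR adjusted p = 0.0667), but was called with the pool as a replicate block. TLI DC3 libraries had 6.54, 2.29, 0.808 and 2.31 CPM. TLI DC1a libraries had 55.7, 90.9, 13.9 and 17.8 CPM, and TLI DC2 libraries 59.5, 22.4 and 45.3 CPM, all above every TLI DC3 library. TLI DC1b libraries were split by batch, at 52.7 and 53.9 CPM in batch 1 and 5.12 and 10.1 CPM in batch 2. Tnf fell by 3.88 ± 0.56 on the log2 scale from TLI DC1a to TLI DC3 (edgeR adjusted p = 0.00152), by 4.24 ± 0.59 from DC2 (edgeR adjusted p = 0.000977) and by 3.11 ± 0.55 from DC1b (edgeR adjusted p = 0.00716). The DC1b comparison was lost without the 4 libraries of TLI pool 1 (edgeR adjusted p = 0.0614), without the batch term (0.077) and with TLI libraries of batch 2 only (0.22). The DC1a comparison was lost with batch 2 only (edgeR adjusted p = 0.128), and the DC2 comparison without the batch term (edgeR adjusted p = 0.0537).

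The promoters of the 4 members with a RefSeq entry that differed among populations are printed 5' to 3' on the strand of the gene, from 250 bases before to 50 bases after the start site, to show how far these genes share short sequence motifs (RefSeq, GRCm38.p6). Capitals mark matches, on either strand, to the NF-kB consensus, to TGANTCA (AP-1), to GAGGAA (the core that PU.1 and other Ets factors bind) or to TATAAA. Tnf lies at chr17:35201958-35202257 (minus strand), Ltb at chr17:35194257-35194556 (plus strand), Tnfrsf13b at chr11:61126505-61126804 (plus strand) and Tnfrsf1b at chr4:145246821-145247120 (minus strand).
Tnf: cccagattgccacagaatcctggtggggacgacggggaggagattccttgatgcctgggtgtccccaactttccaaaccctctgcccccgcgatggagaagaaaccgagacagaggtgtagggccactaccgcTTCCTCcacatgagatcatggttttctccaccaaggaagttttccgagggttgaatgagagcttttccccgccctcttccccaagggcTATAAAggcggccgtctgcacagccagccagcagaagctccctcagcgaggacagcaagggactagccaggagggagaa
Ltb: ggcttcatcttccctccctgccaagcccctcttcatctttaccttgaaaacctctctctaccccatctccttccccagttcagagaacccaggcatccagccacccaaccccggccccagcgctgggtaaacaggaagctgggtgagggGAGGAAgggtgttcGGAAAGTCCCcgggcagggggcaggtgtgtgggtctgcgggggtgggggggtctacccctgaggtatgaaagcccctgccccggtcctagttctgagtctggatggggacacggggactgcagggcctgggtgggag
Tnfrsf13b: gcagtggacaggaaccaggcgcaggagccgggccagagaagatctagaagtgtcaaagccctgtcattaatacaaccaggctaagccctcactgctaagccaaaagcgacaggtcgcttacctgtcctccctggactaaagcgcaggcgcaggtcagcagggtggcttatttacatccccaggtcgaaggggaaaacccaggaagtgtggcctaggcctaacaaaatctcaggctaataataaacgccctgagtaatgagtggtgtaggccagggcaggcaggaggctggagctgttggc
Tnfrsf1b: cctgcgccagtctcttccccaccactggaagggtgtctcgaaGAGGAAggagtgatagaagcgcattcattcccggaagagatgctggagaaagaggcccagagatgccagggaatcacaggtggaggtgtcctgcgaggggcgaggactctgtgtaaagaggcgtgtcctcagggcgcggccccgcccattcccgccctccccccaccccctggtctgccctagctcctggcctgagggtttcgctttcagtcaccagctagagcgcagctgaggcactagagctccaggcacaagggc

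In these windows Tnf had a TATAAA match 29 bases before the start site and a GAGGAA match on the opposite strand, whereas the neighboring Ltb had an NF-kB match starting 87 bases before its start and no TATAAA. Tnfrsf1b held 1 GAGGAA, and Tnfrsf13b held none of the 4 motifs. Over 32851 promoters in the table, the NF-kB consensus was found in 4.51%, TGANTCA in 7.81%, GAGGAA in 28.3% and TATAAA in 13.6%. Of 35 promoters of the 31 members with an entry, 3 held the NF-kB consensus (Tnfrsf8, Tnfrsf9 and Ltb), 7 TGANTCA, 12 GAGGAA and 6 TATAAA. A match describes letters only.

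The receptors of TNF differed from one another in pattern. Tnfrsf1b, TNF receptor 2, which lacks a death domain, was high in DC1b and DC2. Untreated libraries had 25.3 and 40.1 CPM in DC1a, 61.9 and 65.3 CPM in DC1b, 111 and 136 CPM in DC2, and 19 and 20.2 CPM in DC3; the groups did not overlap, but the test over them was not passed (edgeR adjusted p = 0.214). In TLI libraries DC1b was at 112, 70.5, 246 and 185 CPM and DC2 at 127, 146 and 148 CPM, above all of DC1a (10.8, 47.4, 13.3 and 16.2 CPM) and DC3 (18.9, 15.3, 2.78 and 7.94 CPM). Tnfrsf1b rose by 2.88 ± 0.58 on the log2 scale from TLI DC1a to DC1b (edgeR adjusted p = 0.0146) and by 2.52 ± 0.59 to DC2 (edgeR adjusted p = 0.0247). From TLI DC1b to DC3 it fell by 4.05 ± 0.62 (edgeR adjusted p = 0.00235), and from DC2 to DC3 by 3.69 ± 0.62 (edgeR adjusted p = 0.00397). The step from TLI DC1a to DC1b was lost when pool 1, 3 or 4 of TLI DC1a was left out (edgeR adjusted p between 0.0504 and 0.0821). The step to DC2 was lost without pool 1, 3 or 4 of TLI DC1a or pool 3 or 4 of TLI DC2 (edgeR adjusted p between 0.0548 and 0.097), and with the pool as a block (edgeR adjusted p = 0.0539). Neutrophil markers summed to 1406 to 21014 CPM in TLI DC1b and 110 to 2322 CPM in TLI DC2 against 1.16 to 20.2 CPM in untreated DC1b and 1.63 to 2.34 CPM in untreated DC2, and their part in the result was not tested.

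Tnfrsf1a, TNF receptor 1, which carries a death domain, varied less. It ranged from 16.9 to 98.3 CPM in untreated and from 17 to 110 CPM in TLI libraries, and passed no test among populations (edgeR adjusted p = 0.177 in untreated and 0.496 in TLI mice). Of the CPM per kilobase of both receptors, Tnfrsf1b made up 13.9% to 18.2% in untreated DC3 and 2.86% to 19.6% in TLI DC3. The share was 64.7% to 69.1% in untreated DC1b and 48.5% to 52.7% in untreated DC2. The DC3 shares were below those of every DC1b and DC2 library in both treatments. In DC1a the share was 36.26% to 61.65% in untreated and 16.92% to 36.65% in TLI libraries, so that TLI DC1a overlapped with TLI DC3.

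**Figure D2:**
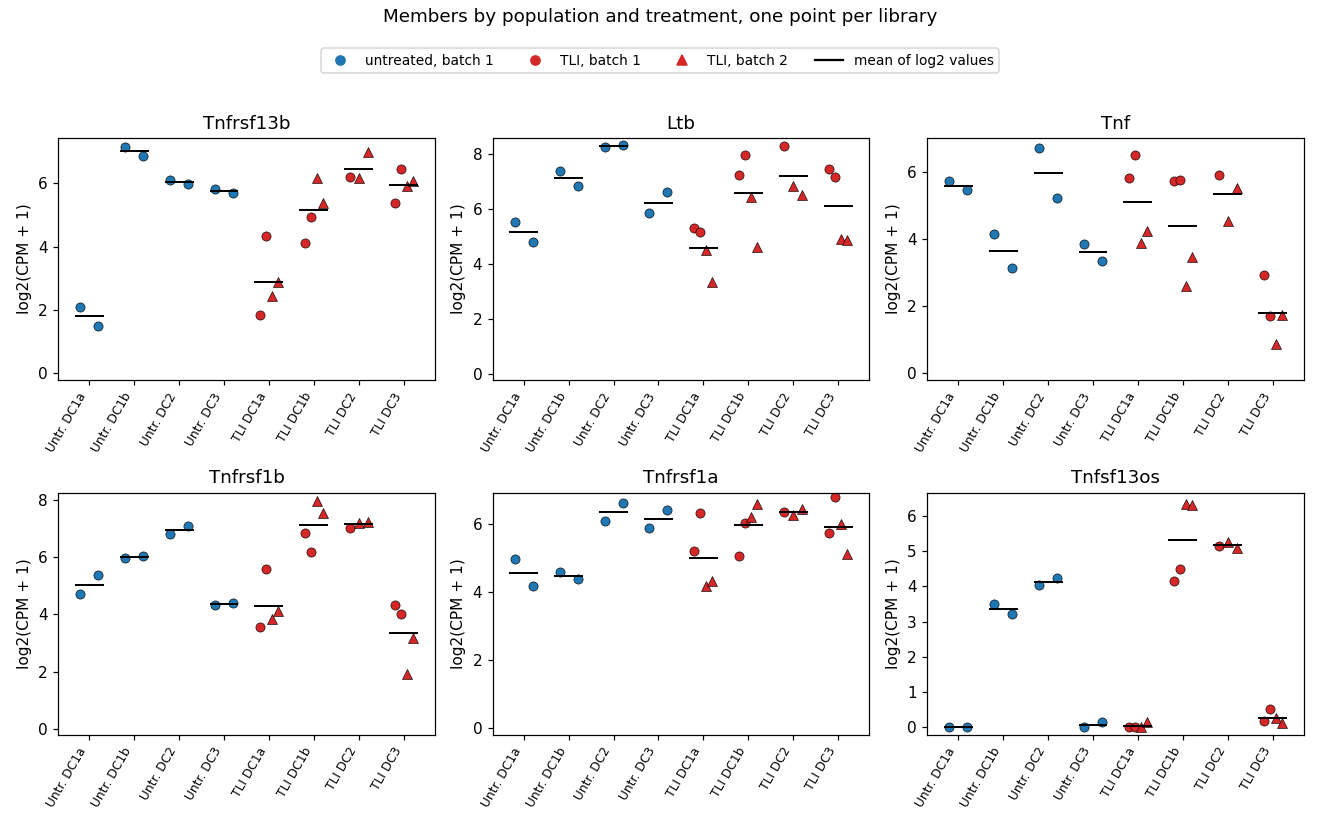
Levels as log2(CPM + 1) of the 5 members that differed among populations in either treatment, and of Tnfrsf1a, in each library; circles are batch 1, triangles batch 2, and bars the mean of the log2 values of the group. Tnfrsf13b is lowest in DC1a, Tnf in TLI DC3, and Tnfsf13os is near 0 in all DC1a and DC3 libraries.

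Among members that passed no test among populations, 4 are described, chosen after their values were seen. Tnfrsf4 stood at 146 and 103 CPM in untreated DC1a, above the other untreated libraries, which ranged from 0.104 to 21.8 CPM. In TLI libraries it was at 65.2, 39.7, 73.4 and 36 CPM in DC1a, but also at 76.5 and 63.7 CPM in DC1b pools 1 and 4. Fas was at 85 and 87 CPM in untreated DC1a and between 28.5 and 41.4 CPM in the TLI DC1a libraries. The death receptor ranged from 0 to 57.9 CPM in the other untreated libraries. Tnfsf9 was at 91.2 and 108 CPM in untreated DC1b, 61.8 and 31.7 CPM in DC2, 21.4 and 13.7 CPM in DC1a and 17 and 15.9 CPM in DC3. Tnfsf8 (CD30 ligand) was at 25 and 42.5 CPM in untreated DC2 and at most 3.2 CPM in any other untreated library.

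The effect of TLI was tested within each population, where the coefficient describes TLI at the level of batch 1. No member passed in DC1a, DC1b, DC2 or DC3 by edgeR, beside 0.0102%, 0.454%, 0.117% and 0.0255% of all genes. At an unadjusted p under 0.05, 3 members were higher and 0 lower in TLI DC1a, beside 4.06% and 5.51% of all genes. In DC1b, 10 were higher and 2 lower, beside 5.99% and 6.1% of all genes. In DC2, 4 were higher and 1 lower, beside 4.27% and 4.55%, and in DC3, 2 were higher and 1 lower, beside 3.78% and 6.38%. DESeq2 in place of edgeR called 3, 8, 3 and 1 members in DC1a, DC1b, DC2 and DC3. How many of all genes DESeq2 called is not given here, so these counts need not be particular to the family.

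In DC1b the smallest p belonged to Tnfrsf21 (death receptor 6), with 14.4 and 8.99 CPM in untreated libraries and 40.8, 36.9, 40.1 and 41.8 CPM in TLI libraries. The groups did not overlap, and the log2 difference was 2.24 ± 0.6 (edgeR adjusted p = 0.123). Tnfrsf1a was also above its untreated range, at 32.3, 64.8, 72.8 and 96.4 CPM against 22.9 and 19.8 CPM (log2 difference 2.24 ± 0.63, edgeR adjusted p = 0.148). Against this, Tnfrsf13b was lower in every TLI DC1b library than in both untreated ones (log2 difference -1.52 ± 0.66, edgeR adjusted p = 0.374). In DC2 Tnfrsf14 (HVEM, the receptor of LIGHT and BTLA) was at 0 and 0.104 CPM in untreated and 10.9, 53.1 and 21.7 CPM in TLI libraries (edgeR adjusted p = 0.309). Cd70, the ligand of Cd27, was at 0 in all TLI libraries of DC1b, DC2 and DC3, and at 0.211 to 4.19 CPM in TLI DC1a, against 4.84 and 2.01 CPM in untreated DC1a, 8.06 and 0 CPM in DC2, 5.64 and 0 CPM in DC3, and 0 in both untreated DC1b libraries. The untreated DC1b libraries differed from TLI DC1b in their plasmacytoid DC markers, as given above, and the part of those cells in the DC1b values was not tested.

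Whether TLI acted unequally on the populations was tested by the interaction term. No member passed by edgeR or by DESeq2 (smallest edgeR adjusted p = 0.588, for Tnfrsf13b), beside 0.117% of all genes, and 4 members had an unadjusted p under 0.05, beside 7.61% of all genes.

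TLI libraries were also compared with untreated ones by batch. Compared with the untreated mean of log2(CPM + 1), TLI libraries of batch 1 were higher in 25 of 38 members in DC1a, 26 in DC1b, 24 in DC2 and 25 in DC3, beside 45.2%, 38.5%, 46.3% and 40.7% of all genes tested. Those of batch 2 were lower in 24, 20, 23 and 31 members in the same order, beside 52.2%, 57.6%, 53.3% and 56.7% of all genes tested. The median difference in DC3 was 0.15 with batch 1 and -0.49 with batch 2, beside -0.08 and -0.1 over all genes tested. In DC1b it was 0.59 with batch 1 and -0.09 with batch 2, beside -0.12 and -0.15 over all genes tested. In DC1a it was 0.54 and -0.25, beside 0 and -0.03, and in DC2 0.16 and -0.19, beside 0 and -0.06. All untreated pools belong to batch 1, so for the batch 2 libraries the batch and TLI cannot be told apart in these differences.

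**Figure D3:**
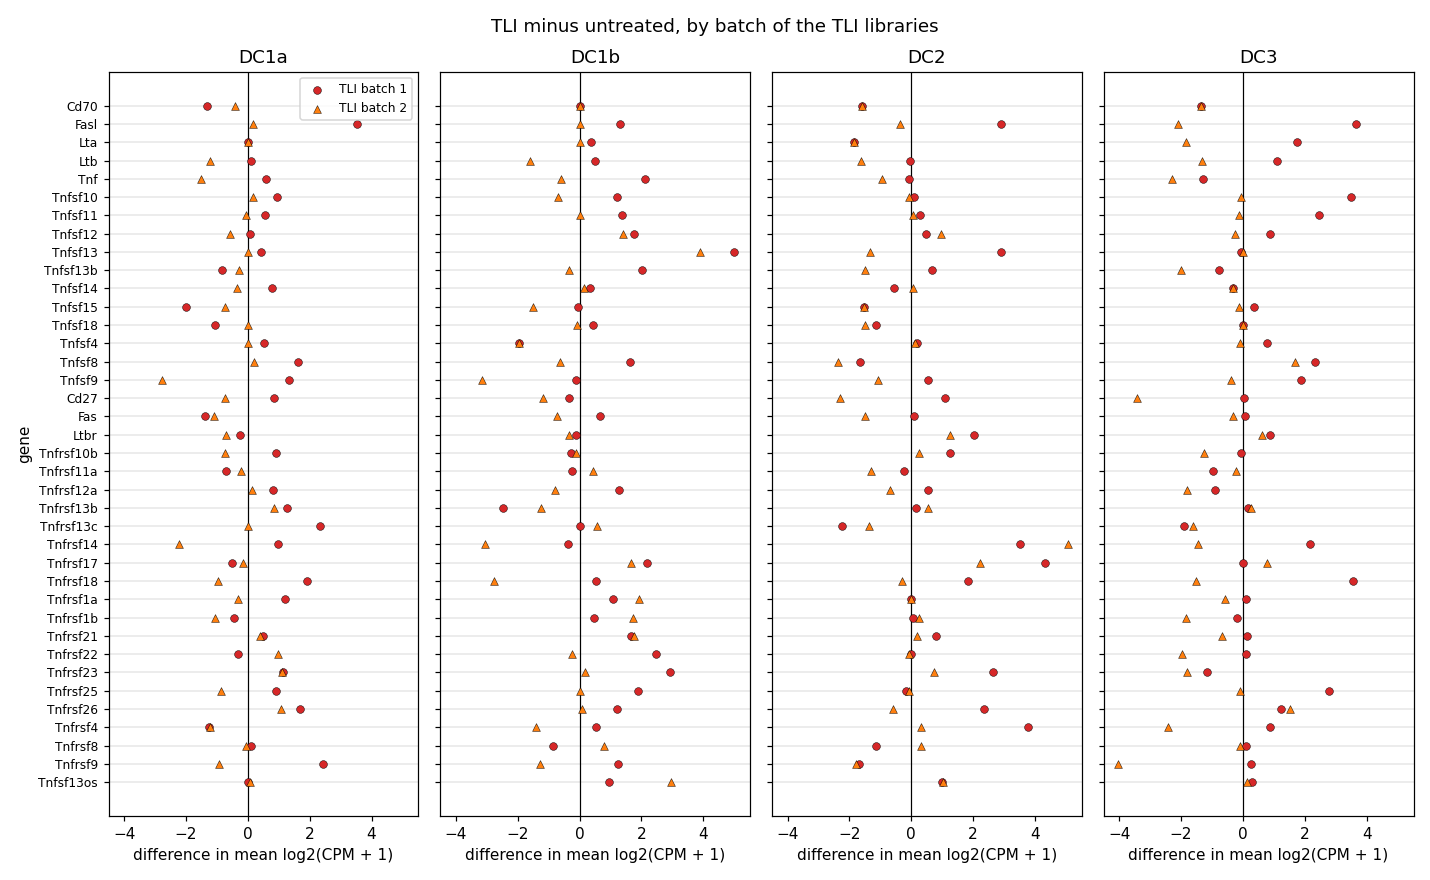
Difference in mean log2(CPM + 1) between TLI and untreated libraries for the 38 tested members in each population, with TLI libraries of batch 1 (circles) and batch 2 (triangles) taken separately. Fasl, Tnfsf10 and Tnfrsf18 in DC3 lie to the right with batch 1 and at or left of 0 with batch 2.

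The batch term, tested after the values had been seen, called 8 of 38 members, all lower in batch 2. Beside this it called 16.7% of all genes in either direction, 7.7% lower and 9.05% higher. It set libraries of TLI pools 1 and 2 against those of pools 3 and 4, with libraries of the same mice taken as separate. Its p-values therefore measure the spread between libraries, not between pools, and no run with a pool block tested it. Ltb fell by 1.79 ± 0.29 on the log2 scale (edgeR adjusted p = 0.000483) and Tnf by 1.92 ± 0.4 (edgeR adjusted p = 0.00296). Tnfsf9 fell by 2.5 ± 0.76 (edgeR adjusted p = 0.0327), and Cd27, a receptor of T and NK cells, by 2.79 ± 0.87 (edgeR adjusted p = 0.0363). The other 4 called members were Fasl, Tnfsf10 (TRAIL, a death ligand), Tnfsf11 (RANKL) and Tnfrsf25 (death receptor 3, a T-cell receptor). Cd27 was lost in 12 of 23 fits that left out 1 library (edgeR adjusted p up to 0.111), Tnfsf10 in 12 (up to 0.0991) and Tnfsf9 in 5 (up to 0.0725). Without the 4 libraries of TLI pool 1, only Ltb and Tnf were called. Leaving out single libraries gave 3 called members without TLI DC1b pool 2, and 5 without pool 2 or 3 of TLI DC3 or pool 4 of TLI DC1a.

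Several of these members are best known from lymphocytes, and they were high in few libraries. Fasl was at 103 and 27.7 CPM in TLI DC3 pools 1 and 2 and at 0 in pools 3 and 4. In TLI DC1a it was at 10.1, 23, 1.49 and 0 CPM, and among untreated libraries it was at 17.6 CPM in DC3 pool 1 and at most 1 CPM in the others. Tnfsf10 reached 10.3 and 11.1 CPM in TLI DC3 pools 1 and 2 and was at 0 in pools 3 and 4. Tnfsf11 was at 10.8 and 2.03 CPM in the same libraries of batch 1, and at most 0.0904 CPM in the 8 TLI libraries of batch 2. Tnfrsf18 (GITR, a costimulatory receptor of T cells) had a median of 62.1 CPM in TLI batch 1 (21.1 to 84.7 CPM), of 2.68 CPM in batch 2 (0.0904 to 27.5 CPM) and of 14.9 CPM in untreated libraries (0.26 to 36.2 CPM). Its batch difference of -3.58 ± 1.23 missed the threshold (edgeR adjusted p = 0.0552).

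Summed T-cell and NK-cell markers were also higher in TLI batch 1 than in TLI batch 2. The 6 T-cell markers summed to 61.4 to 294 CPM in TLI batch 1, 2.5 to 36.8 CPM in batch 2 and 0.363 to 25.9 CPM in untreated libraries, and 5 or 6 of 6 were over 3 counts in TLI batch 1 against 1 to 4 in both other sets. The 6 NK-cell markers summed to 66 to 2628 CPM, 0.069 to 40.5 CPM and 2.4 to 260 CPM in the same order, with 4 to 6, 0 to 4 and 1 to 5 of 6 over 3 counts. Single T-cell markers differed: Cd3d and Lck were over 3 counts in 21 of the 23 libraries each. Lat was over 3 counts in 14, Cd5 in 11, Cd3g in 9 and Cd3e in 8. Cd3e was at 0 in 7 of the 8 untreated libraries. Ncr1, an NK-cell receptor, reached 1112 CPM in TLI DC3. The highest Fasl library, TLI DC3 pool 1, also had the highest NK-cell sum. Within batch 1 the order could differ. TLI DC1b pool 1 had T-cell and NK-cell sums of 184 and 116 CPM, against 61.4 and 66 CPM in pool 2. Its Fasl was lower, at 0.26 CPM against 3.89 CPM in pool 2. The part of these cells in the levels of Fasl, Tnfsf10, Tnfsf11, Tnfrsf25, Tnfrsf9 and Tnfrsf18 was not tested.

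**Figure D4:**
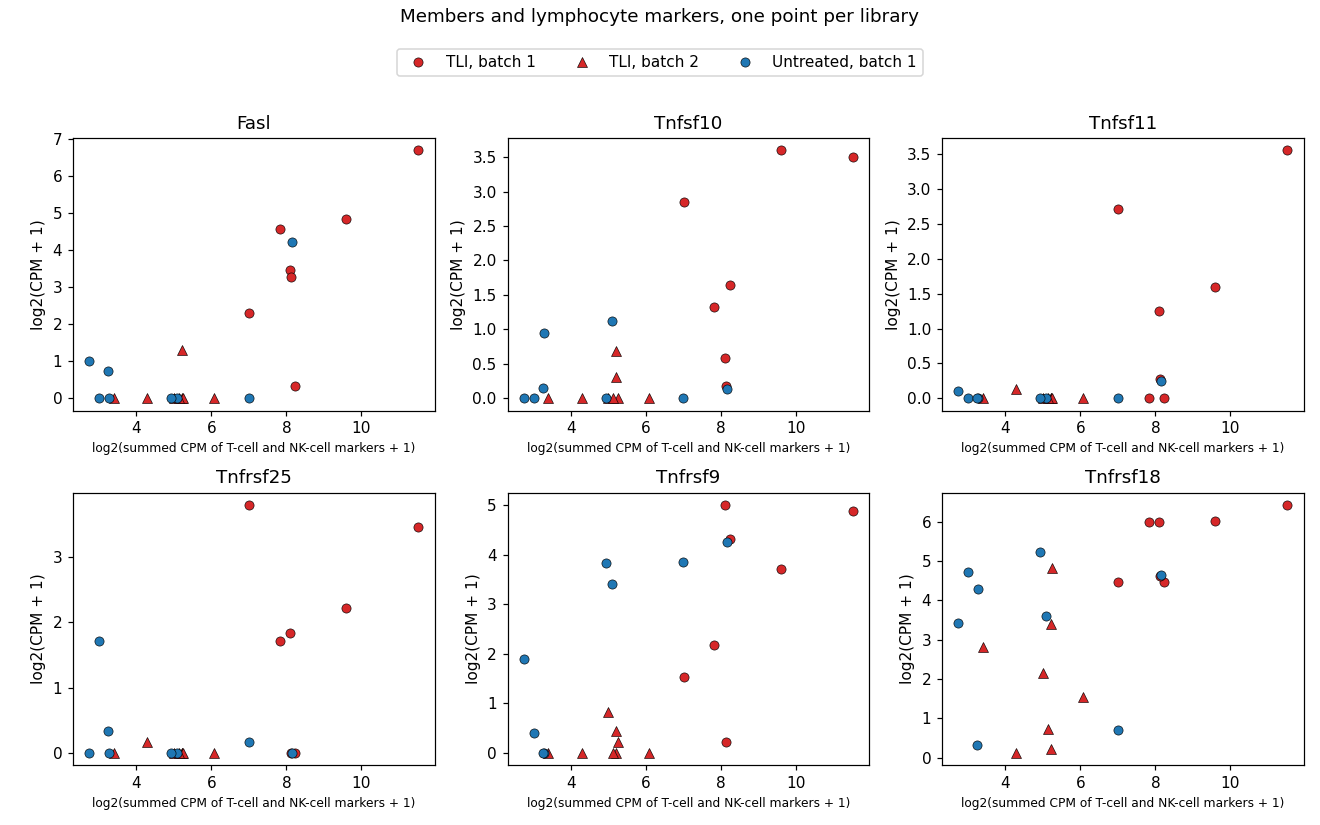
Levels of 6 members as log2(CPM + 1) against the summed CPM of 12 T-cell and NK-cell markers (log2 axis) in each of the 23 libraries; red circles are TLI batch 1, red triangles TLI batch 2, blue circles untreated. The horizontal positions are the same in all panels, with the TLI libraries of batch 1 to the right of those of batch 2.

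Plasma-cell markers are given beside Tnfrsf17. The receptor was at 27.7, 39.9, 14.1 and 36.2 CPM in TLI DC1b and at 7.02 and 6 CPM in untreated DC1b. The 4 markers summed to 1258 to 14538 CPM in TLI DC1b and 1008 to 1043 CPM in untreated DC1b. In TLI DC3 the receptor was at 4.31, 10.8, 19.9 and 7.94 CPM with a marker sum of 1398 to 5435 CPM. In untreated DC3 it was at 62.1 and 0 CPM with a marker sum of 4568 to 9916 CPM. Their part in the receptor's level was not tested.

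Ligands and receptors that bind each other were also set side by side. Of 23 known pairs, both partners had a group mean of at least 5 CPM for 3 pairs in untreated DC1a, 6 in DC1b, 7 in DC2 and 10 in DC3, and for 5, 8, 9 and 5 in the TLI groups in the same order. Many of these rested on single libraries: both partners were at 5 CPM or more in every library of the group for 3, 2, 3 and 3 pairs in the untreated groups and 2, 4, 3 and 0 in the TLI groups. Fasl and Fas, counted by their means in untreated DC3, were at 17.6 and 0 CPM in pool 1 and at 0 and 57.9 CPM in pool 2. By group mean, Tnf with either of its receptors met this in all groups but TLI DC3, where the Tnf mean was under 5 CPM. Ltb, also by mean, met it with Ltbr, the receptor on which DC turnover depends, in 7 of 8 groups and missed it in untreated DC2, where Ltbr was at 4.64 and 5.09 CPM.

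By position, 23 members lay in 9 clusters, counting members less than 200000 bases apart. Apart from the Ltb, Tnf and Lta cluster these included Cd27, Ltbr and Tnfrsf1a on chromosome 6, Tnfrsf4 and Tnfrsf18 on chromosome 4, and the paralogs Tnfrsf26, Tnfrsf22 and Tnfrsf23 on chromosome 7. Counts of the last 3 are uncertain, since similar genes can share reads, and all were at or under 16.2 CPM. Tnfsf12 and Tnfsf13 share exon bases with a readthrough gene (731 and 983), and Tnfsf9, Tnfrsf18 and Cd27 overlap other genes by 129 to 414 bases.

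Downstream, 40 genes of TNF receptor signaling were followed, all of which were tested. In untreated mice 4 differed among the populations, beside 2.53% of all genes: Tank (a TRAF-binding regulator), Rel (an NF-kB subunit), Adam17 (the protease that sheds TNF) and Map3k5 (the kinase ASK1). Tank had the smallest p, at 109 ± 4.83 CPM in DC1a, 107 ± 35.8 in DC1b, 268 ± 38.2 in DC2 and 28 ± 0.158 in DC3 (SD, n = 2 each; edgeR adjusted p = 0.000891). Adam17 rose by 3.66 ± 0.71 on the log2 scale from untreated DC1a to DC2 (edgeR adjusted p = 0.00939), which had 15.7 ± 7.6 and 231 ± 11.7 CPM (SD, n = 2 each). In TLI mice 7 differed among populations, beside 3.16% of all genes, those of smallest p being Map3k5, Rel and Ikbkb (an IkB kinase subunit). From TLI DC1b to DC3, 6 fell (Birc2, Tank, Relb, Map3k14, Rel and Map3k5) and none rose, beside 1.14% of all genes called. No gene of the list passed for TLI against untreated in any population by edgeR, nor in the interaction test. Unadjusted p was under 0.05 for 6 genes in DC1a, 7 in DC1b, 9 in DC2, 6 in DC3 and 4 in the interaction test, beside 9.57%, 12.1%, 8.81%, 10.2% and 7.61% of all genes.

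Of 8 superfamily-related genes with other symbols, 5 were tested. None differed among populations by edgeR, beside 2.53% of all genes in untreated and 3.16% in TLI mice. An unadjusted p under 0.05 was found for 1 gene in untreated and 3 in TLI mice, beside 14% and 17.1% of all genes. Cd40, the receptor through which T cells license DCs, was at 88.6 ± 23.1 CPM in untreated DC1a, 91.2 ± 12.6 in DC2, 26 ± 16.4 in DC1b and 6.77 ± 1.76 in DC3 (SD, n = 2 each; edgeR adjusted p = 0.151).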

How the data were processed

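RNA of sorted spleen DCs was amplified as low-input cDNA and sequenced in 23 libraries. The authors trimmed reads with Trimmomatic, aligned them to GRCm38 with HISAT2 and deposited StringTie estimated counts per gene, which are whole numbers in the table; the strand setting is not given in the sources used here. No molecular identifiers were used, so floors of 3 counts cover counting error only. Groups came from the labels' population and treatment. Libraries are pools of mice, and p-values measure the spread between these pools. Levels per kilobase used exon lengths of a GENCODE annotation of GRCm38. Members and lists were chosen with earlier results of these data known.

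Counts were fitted with edgeR 4.0.16 in R 4.3.3 (TMM, filterByExpr, robust quasi-likelihood; 8 groups plus batch, 14 residual degrees of freedom), with Benjamini-Hochberg adjustment over 19597 genes and a threshold of 0.05. A log2 difference between TLI and untreated libraries is for batch 1. The fitting code was also run on simulated counts, in part with a spread set lower than in these libraries. The outcomes are not given here, so these runs do not show how the tests perform on these data. The named members are those past a test, the top 3 ligands and receptors per kilobase of each group, and their binding partners; others named for their pattern were chosen after their values were seen. Alternatives used DESeq2 1.42.0, limma 3.58.1, other filters and scaling, no batch term, fewer libraries and the pool as a block.

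By the labels, libraries of 1 pool number and treatment come from the same mice. Their deviations from the group means correlated between -0.00585 and 0.0159 over 6 distinct untreated pairs (with 2 pools per group, the pools mirror each other) and between -0.162 and 0.0673 over 21 TLI pairs.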

Additional observations from a re-analysis of the deposited data

Results flagged for a closer look

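In each group of 4 libraries, the highest or lowest library was set against the others by Dixon's ratio at its 95% critical value. Of 72 tests, 19 passed. In 8 of the 19 the other 3 libraries were at 0, so that any count above 3 passed. The rate of about 1 in 20 that chance gives for normal values does not apply to them. TLI DC1b pool 2 stood above the other TLI DC1b libraries in Cd27 (15.7 CPM), Fasl (3.89 CPM), Tnfrsf25 (12.9 CPM), Tnfsf11 (5.57 CPM) and Tnfrsf11b (0.147 CPM). TLI DC1b pool 1 stood above the rest in Tnfrsf9 (18.9 CPM) and Tnfsf15 (7.93 CPM), and pool 4 stood below them in Tnfsf13 (6.07 CPM). In TLI DC1a, pool 1 was high in Tnfrsf9 (31.1 CPM) and Tnfsf11 (1.37 CPM), and pool 2 in Tnfrsf1b (47.4 CPM). Pool 3 of TLI DC1a was high in Tnfsf15 (4.65 CPM), and pool 4 in Tnfsf13b (4.56 CPM) and Tnfsf13os (0.109 CPM). In TLI DC3, pool 1 was high in Lta (34.1 CPM) and Tnfrsf10b (4.26 CPM). Pool 2 of TLI DC3 was high in Tnfsf13b (8.71 CPM) and Tnfsf15 (0.96 CPM), and pool 4 in Tnfrsf11a (10.3 CPM). Groups of 2 or 3 libraries were not tested this way.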

How the results depend on the processing

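Of 38 single calls, all kept their side of the threshold with DESeq2 and with its size factors, and no call reversed under any alternative run. With the batch term left out 20 of 30 calls were kept, and without the 4 libraries of TLI pool 1, 18 of 28. Fits of untreated libraries only kept 6 of 10 calls, all 4 losses being of Tnfsf13os, and fits of TLI libraries only kept 23 of 28 (Tnfrsf13b, Tnfrsf1b, Tnfsf9 and Cd27 lost calls). Members different among untreated populations numbered 7 with DESeq2 and 1 to 4 when single libraries were left out (1 without either untreated DC1a library). Among TLI populations they numbered 3 without the batch term and 3 with TLI libraries of batch 2 only, where Ltb (edgeR adjusted p = 0.248 and 0.134) and Tnf (0.0697 and 0.0682) were lost, and 4 to 6 with single libraries left out. Batch differences numbered 13 with DESeq2, 5 with no filter on low counts, 2 without TLI pool 1 and 3 to 10 with single libraries left out. Differences between TLI and untreated mice numbered 3 in DC1a, 8 in DC1b, 3 in DC2 and 1 in DC3 with DESeq2. In DC1b they numbered 3 with limma-voom and the pool as a random block, 1 without TLI pool 1 and 2 with TLI batch 2 only, and with single libraries left out they stayed at 0 to 0 in each population. Calls between 2 untreated populations numbered 18 with DESeq2, 4 without the batch term and 1 to 7 with single libraries left out, and those between TLI populations 10 to 16. When edgeR took the pool as a replicate block, 28 of 30 calls were kept. Tnfsf13os from untreated DC2 to DC3 (edgeR adjusted p = 0.0597) and Tnfrsf1b from TLI DC1a to DC2 (0.0539) were lost under this pairing, and Tnf among untreated populations was added. The cause of these changes was not tested. Shares of all genes called in these alternative runs are not given here, so a larger count of members need not be particular to the family.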
